A study of Mus musculus with 6 samples.

Results

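A set of 8 transcription factor genes known to answer bone morphogenetic protein (BMP) signals in embryos was followed in melanoma spheroids, namely Msx1, Msx2, Dlx1, Dlx2, Gata2, Tbx2, Tbx3 and Zfp503. They were chosen by name, with earlier results of these data known, and all 8 were found among the 34981 genes of the expression table. Of these, 5 passed a filter on low counts and were tested for a difference, and 3 did not. The spheroids were made from B16F10 cells, an established melanoma line from C57BL/6 mice, in Matrigel, a basement membrane extract. For 10 days they were kept with BMP2 (100 ng/ml) or with PBS, and each of 3 batches gave 1 RNA sequencing library per treatment. The labels name no engineered allele and no sorting of cells, so each value is an average over a whole culture of this single line. In such bulk samples, fewer cells that express a gene and less RNA per cell cannot be told apart.

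BMP ligands bind paired receptors whose kinases activate SMAD1, SMAD5 and SMAD9, which join SMAD4 and bind DNA at the genes they control. Msx1 and Msx2 encode homeobox repressors and are textbook BMP targets in the neural crest, the embryonic tissue from which melanocytes come, and in tooth and limb buds. Dlx1 and Dlx2 encode homeobox factors of the forebrain and the branchial arches and lie side by side in the genome. Gata2 encodes a zinc-finger factor of blood stem cells that BMP also induces in early ectoderm. Tbx2 and Tbx3 encode T-box repressors, of which TBX2 acts in melanocytes and is amplified in some melanomas. Zfp503 encodes a zinc-finger corepressor of the developing striatum and limb.

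The reference sequence just before the start site is shown for 3 of the genes, because they stand for a gene that was higher with BMP2 (Gata2), a neighbour pair with a smaller difference (Dlx2) and a gene without detectable transcript (Msx1). RefSeq promoter windows on GRCm38.p6 matched 6 of the 8 genes, with 7 windows in all, and the 250 bases before the start site were searched. The 3 windows are chr6:88193641-88193890 (plus strand), chr2:71546755-71547004 (minus strand) and chr5:37824586-37824835 (minus strand), and none overlaps an annotated exon. Capitals mark matches on either strand to GGCGCC or GGAGCC, GC-rich sequences bound by BMP-activated SMADs, and to GTCT, the core of the SMAD-binding element.
Gata2: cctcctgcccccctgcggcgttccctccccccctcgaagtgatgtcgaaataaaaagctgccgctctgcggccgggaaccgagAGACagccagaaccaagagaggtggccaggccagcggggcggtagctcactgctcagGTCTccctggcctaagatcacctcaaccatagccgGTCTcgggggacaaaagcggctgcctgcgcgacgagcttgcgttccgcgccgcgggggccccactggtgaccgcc
Dlx2: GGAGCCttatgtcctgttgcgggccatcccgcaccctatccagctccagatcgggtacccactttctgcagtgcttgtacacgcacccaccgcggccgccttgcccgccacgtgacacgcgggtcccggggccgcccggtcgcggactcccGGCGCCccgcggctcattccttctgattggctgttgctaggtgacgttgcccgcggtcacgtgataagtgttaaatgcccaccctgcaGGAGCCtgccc
Msx1: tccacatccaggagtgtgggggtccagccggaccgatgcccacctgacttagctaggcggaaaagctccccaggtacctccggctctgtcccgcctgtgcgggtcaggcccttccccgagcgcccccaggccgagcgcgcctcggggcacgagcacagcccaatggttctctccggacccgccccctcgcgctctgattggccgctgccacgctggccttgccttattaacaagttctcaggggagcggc
The Gata2 window shown held 3 matches to GTCT and 0 to the GC-rich sequences. A second Gata2 window, chr6:88198414-88198663, overlaps an annotated exon and is not shown. It held 1 match to GGCGCC, 0 to GGAGCC and 2 to GTCT. The Dlx2 window held 1 match to GGCGCC, 2 to GGAGCC and 0 to GTCT, and that of Msx1 held 0 matches to any of them. The searched motifs do not overlap one another in the 3 windows shown. Among all 32851 RefSeq windows of the same length, 9.6% held GGCGCC, 26.0% held GGAGCC and 82.9% held GTCT. A match is a run of letters and not a measured binding site.

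The 6 libraries held 27821900 to 36856500 estimated counts, and the scaling factors of the trimmed mean of M values (TMM) lay between 0.872 in PBS 1 and 1.087 in BMP2 3, so that PBS 1 stood lowest. Levels are given as CPM, the scaled counts over a common library size, and 3 counts in a library correspond to 0.0749 to 0.103 CPM. The 8 melanocyte lineage genes checked (Mitf, Sox10, Tyr, Tyrp1, Dct, Pmel, Mlana and Slc45a2) were present in every library, at a summed 23800 to 26800 CPM with PBS and 29100 to 39700 CPM with BMP2. Marker lists of fibroblasts, endothelial cells, leukocytes and keratinocytes summed to at most 19.2 CPM in any library, and Cdh5, Tek, Cldn5, Adgre1, Krt10, Trp63 and Dsg3 among them were at 0 in each. Others were present, with Vwf at 4.32 to 15.1 CPM, Pecam1 at 0.724 to 2.02, Cd68 at 2.02 to 4.91 and Lyz2 at 0.299 to 2.81. Among fibroblast genes, Postn was at 0.988 to 11.7 CPM, Pdgfra at 1.66 to 7.32, Col1a1 at 0.822 to 1.80 and Thy1 at 0.300 to 2.19. Of the 8 keratinocyte genes, 4 were not analysed here. Over all 12929 tested genes, 1 rose (0.00773%) and 5 fell (0.0387%) by edgeR's quasi-likelihood test at a Benjamini-Hochberg adjusted p of 0.05, and 48 rose and 47 fell with the batch as a block.

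The 8 genes differed far more in level than in their response to BMP2. The levels in this paragraph are CPM per kilobase of annotated exon, the scale on which genes of different length can be compared. Tbx2 stood at 60.3 ± 29 with PBS and 72.5 ± 19 with BMP2 (SD, n = 3), a mean level above that of 94.4% of the tested genes. Gata2 followed at 0.687 ± 0.16 and 1.68 ± 0.54, above 22.8% of them. Dlx2, at 0.457 ± 0.30 and 0.702 ± 0.40, and Dlx1, at 0.373 ± 0.072 and 0.577 ± 0.11, did not differ from each other beyond their spread. With PBS, Gata2 and Dlx2 did not differ beyond their spread either. Zfp503 was lower still, at 0.199 ± 0.072 and 0.125 ± 0.042. Msx1, Msx2 and Tbx3 were at or below 0.00602 in either group.

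**Figure D1:**
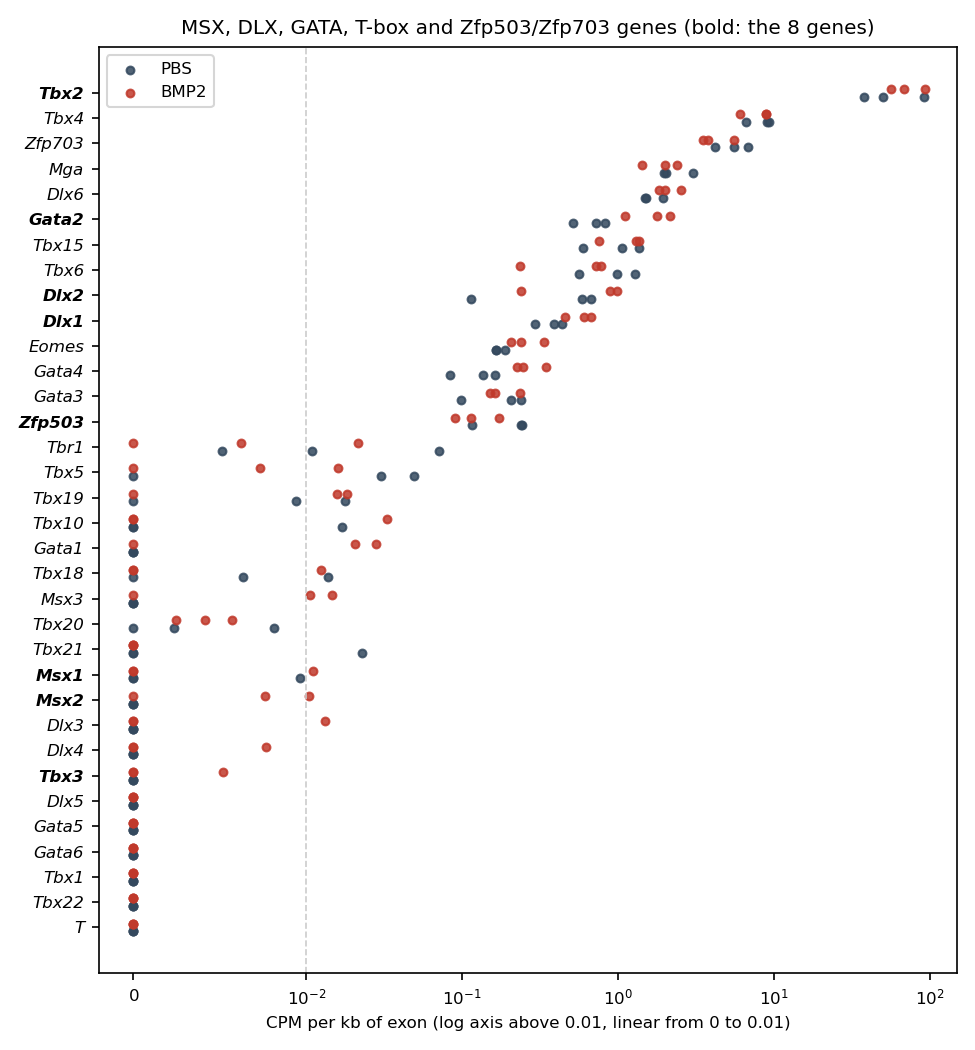
Level of each of the 8 genes (bold) and of 26 related genes in each of the 6 libraries, as CPM per kb of exon, on an axis that is logarithmic above 0.01 and linear below it. Points are libraries (dark for PBS, red for BMP2). Tbx2 stands above all the others, and Msx1, Msx2 and Tbx3 lie near 0 in both groups.

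The textbook targets Msx1 and Msx2 were not detectably expressed in either group. Msx1 (ENSMUSG00000048450, GRCm38 chromosome 5, 37820485 to 37824583) had 1 count in BMP2 1, 1 count in PBS 3 and 0 in the other 4 libraries. Msx2 (ENSMUSG00000021469, chromosome 13, 53466884 to 53473074) had 1 count in BMP2 1, 1 in BMP2 3 and 0 in the others. Both lie under 3 counts, taken here as the limit that a count of 0 allows, so no fold change is given. Summed over the 3 BMP2 libraries, the 95% exact Poisson interval reached up to 0.0538 CPM for Msx1 and 0.0698 CPM for Msx2, which covers counting error only. With PBS that bound was 0.0559 CPM for Msx1 and 0.037 CPM for Msx2, which had 0 counts. The third member of the family, Msx3, had 1 count in each of BMP2 1 and BMP2 3. None of the 31-base words of the Msx1 transcripts, and 0.78% of those of Msx2, occur in transcripts of other genes.

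Tbx3 was likewise not detectable, although its close relative Tbx2 was the most abundant of the 8 genes. Tbx3 (ENSMUSG00000018604, chromosome 5, 119670669 to 119684724) had 1 count in BMP2 1 and 0 in the other 5 libraries. By the same interval this allows up to 0.0538 CPM over the BMP2 libraries and 0.037 CPM over those of PBS. Tbx2 (ENSMUSG00000000093, chromosome 11, 85832551 to 85841948) was at 247, 337 and 204 CPM in BMP2 1, 2 and 3, and at 138, 336 and 181 CPM in PBS 1, 2 and 3. The BMP2 library was the higher of the pair in batches 1 and 3 and level with PBS in batch 2, and the ranges of the groups overlapped. The log2 fold change was 0.27 (SE 0.35, 95% confidence interval -0.54 to 1.07, edgeR adjusted p 0.903). Within the batches the log2 differences were 0.84, 0.01 and 0.17. The log2 fold change moved with single libraries: it was 0.01 without PBS 1, 0.03 without BMP2 2, 0.15 without PBS 3, 0.42 without BMP2 3 and 0.72 without PBS 2.

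Gata2 showed the firmest difference of the 8 genes, although edgeR called it neither without nor with the batch. Gata2 (ENSMUSG00000015053, chromosome 6, 88193891 to 88207032) was at 5.96, 9.61 and 11.7 CPM in BMP2 1, 2 and 3, and at 3.90, 4.44 and 2.78 CPM in PBS 1, 2 and 3. Every BMP2 library lay above every PBS library, which 6.42% of the tested genes also showed. The mean was 9.07 ± 2.9 against 3.71 ± 0.84 CPM (SD, n = 3), a 2.45-fold ratio, and the log2 fold change was 1.29 (SE 0.34, 95% confidence interval 0.50 to 2.08). The unadjusted p was 0.00561, and 1.01% of the tested genes had a smaller one (3.77% with the block). The edgeR adjusted p was 0.548, or 0.151 with batch as a block. By DESeq2's Wald test the adjusted p was 0.0501, and 0.0132 with the block. In the blocked edgeR fit it was 0.0197 when no filter on low counts was applied and 0.0302 without batch 1, so that the call depends on these choices. The transcripts of Gata2 share none of their 31-base words with other genes.

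**Figure D2:**
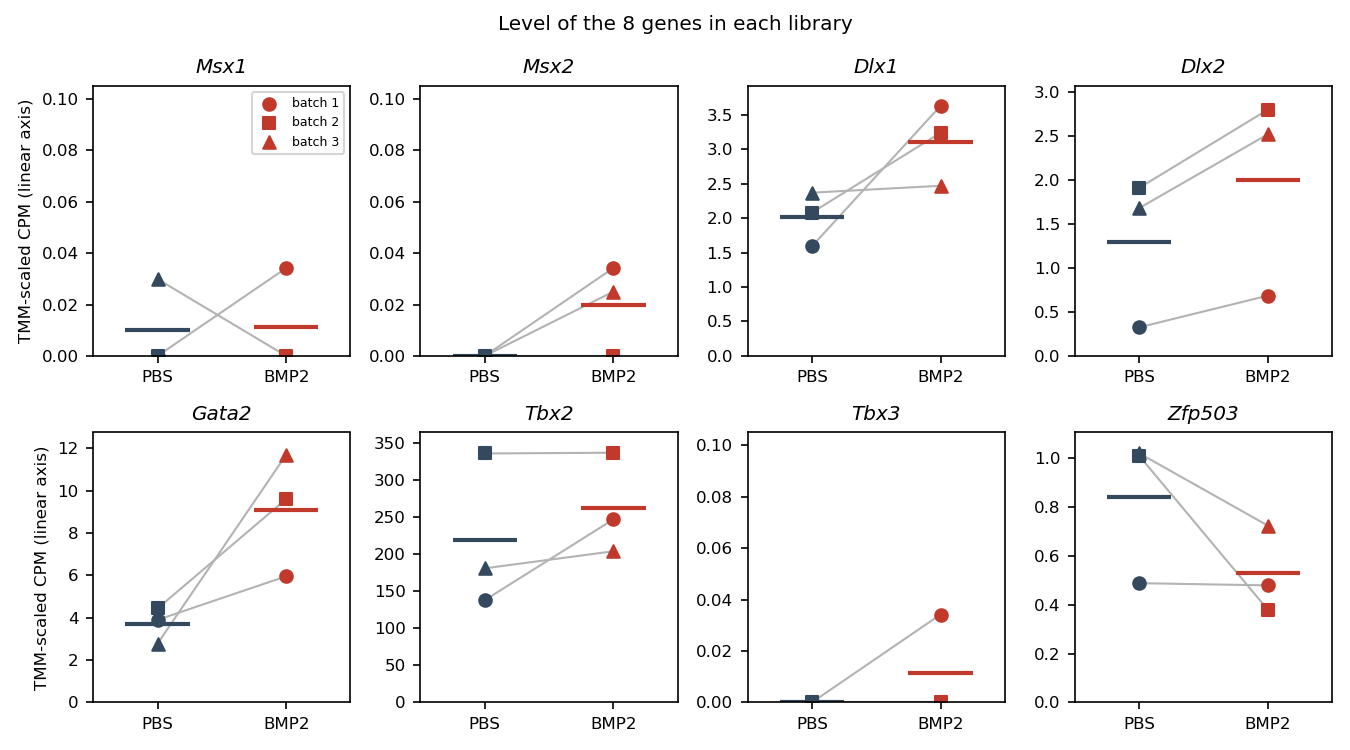
Level of each of the 8 genes in each library, in TMM-scaled CPM on linear axes that start at 0 and differ between panels. Symbols mark the batch, grey lines join the 2 libraries of a batch and bars are group means. For Gata2 and Dlx1 the 3 BMP2 libraries lie above the 3 PBS libraries, and the values of Msx1, Msx2 and Tbx3 are single counts.

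Dlx1 and Dlx2, which lie 9426 bases apart on chromosome 2, were both expressed at a few CPM and were both higher in each batch. Dlx1 (ENSMUSG00000041911, 71528113 to 71533981) was at 3.63, 3.24 and 2.47 CPM in BMP2 1, 2 and 3, and at 1.59, 2.08 and 2.37 CPM in PBS 1, 2 and 3. The groups did not overlap, but the lowest BMP2 library and the highest PBS library, both of batch 3, were close. The log2 fold change was 0.63 (SE 0.36, 95% confidence interval -0.20 to 1.46, edgeR adjusted p 0.883), with differences of 1.18, 0.64 and 0.06 in batches 1, 2 and 3. An antisense gene, Dlx1as, shares 335 exon bases with Dlx1 and 308 of its 5496 31-base words, and no source used here gives the strand setting of the counting, so reads from Dlx1as can stand under Dlx1.

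Dlx2 (ENSMUSG00000023391, 71543408 to 71546754) was at 0.685, 2.80 and 2.52 CPM in BMP2 1, 2 and 3, and at 0.325, 1.91 and 1.68 CPM in PBS 1, 2 and 3. Both libraries of batch 1 were low, so that the groups overlapped although BMP2 was higher in each pair, by 1.04, 0.55 and 0.58 on the log2 scale. The log2 fold change was 0.62 (SE 0.73, 95% confidence interval -1.07 to 2.31, edgeR adjusted p 0.896). With batch as a block it was 0.70, with an interval of -0.14 to 1.54 (edgeR adjusted p 0.362). It was 0.16 without PBS 1, 0.29 without BMP2 2 and 1.02 without BMP2 1.

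Zfp503 was the one tested gene of the 8 with lower values under BMP2. Zfp503 (ENSMUSG00000039081, chromosome 14, 21983959 to 21989601) was at 0.479, 0.380 and 0.724 CPM in BMP2 1, 2 and 3, and at 0.488, 1.01 and 1.02 CPM in PBS 1, 2 and 3, which rests on 12.9 to 36.4 estimated counts per library. The groups overlapped because PBS 1 was low. The log2 fold change was -0.66 (SE 0.51, 95% confidence interval -1.85 to 0.52, edgeR adjusted p 0.883), with differences of -0.02, -1.38 and -0.49 in batches 1, 2 and 3. It was -0.27 with the block and without batch 2.

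**Figure D3:**
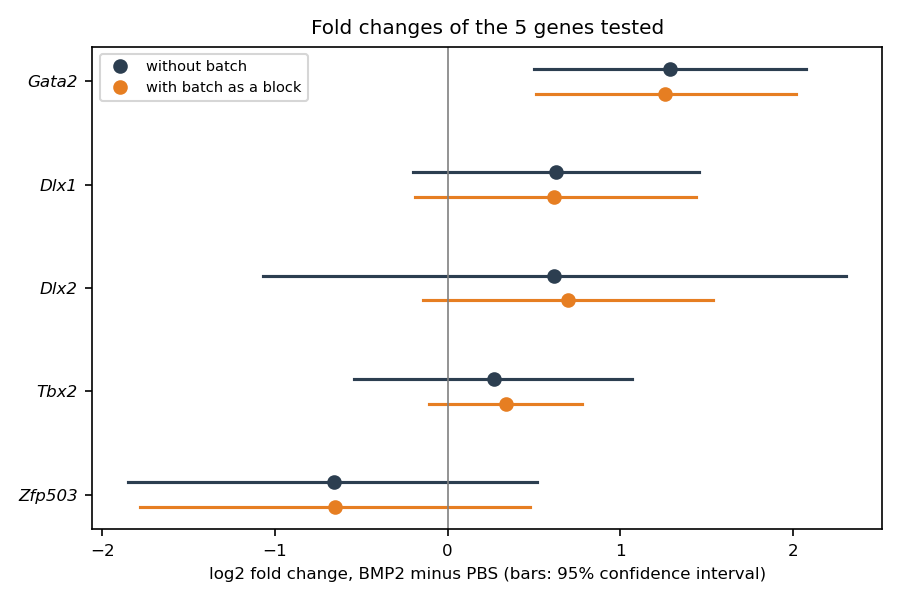
Log2 fold change, BMP2 minus PBS, of the 5 tested genes with its 95% confidence interval, without batch (dark) and with batch as a block (orange). The interval of Gata2 lies above 0 in both models, from 0.50 to 2.08 and from 0.51 to 2.02, and those of the other 4 genes include 0.

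Among the 5 tested genes, 4 were higher in all 3 batches, against 22.7% of all tested genes, and 1 was lower in all 3, against 21.2%. These shares apply to the batch counts of every list. The count of higher genes includes Tbx2, whose difference in batch 2 was 0.01, and Dlx1, with 0.06 in batch 3. The 1 lower gene, Zfp503, differed by only -0.02 in batch 1. The groups did not overlap for 2 of the 5 (12.1% of all tested genes in either direction). By edgeR's test 0 of the 5 passed over all genes in either model, where 0.0464% of all tested genes passed without the block and 0.735% with it. At an unadjusted p of 0.05, 1 of the 5 passed in either model (Gata2), and so did 5.38% of all tested genes without the block and 17.0% with it, the shares against which the unadjusted counts of every list stand. DESeq2 called 0 of the 5 without the block (1.01% of all tested genes) and 1 with it (Gata2, against 5.05%). Limma called 0 in both models (0.0696% and 0.897% of all tested genes). The shares of both tools apply to every list. Their median log2 fold change was 0.62, against 0.01 over all tested genes. For Dlx1, Dlx2, Tbx2 and Zfp503 a lack of change was not shown. Without the block each of their intervals holds a log2 fold change of 1 or of -1, and with it that of Tbx2 is narrower, from -0.11 to 0.78.

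**Figure D4:**
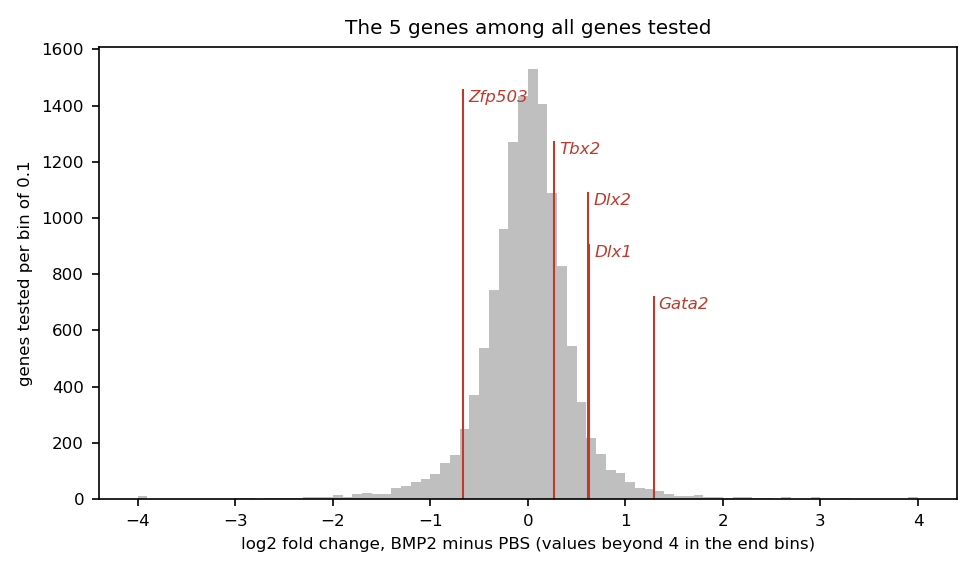
Number of tested genes by log2 fold change, BMP2 minus PBS, without the block (grey bars, bins of 0.1), with the 5 tested genes as red lines whose heights only separate the labels. Gata2 at 1.29 lies in the tail, where 2.75% of all tested genes had a larger absolute value, and Tbx2 at 0.27 lies in the bulk.

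The same spheroids showed larger differences at most of the other BMP targets that were tested. The list of these targets was chosen with earlier results of these data known, so its median is not an independent yardstick for the 8 genes. It holds 18 genes outside the 8, of which 13 were tested, with a median log2 fold change of 2.91. Of these, 5 had a smaller absolute value than Gata2, with 1.00 for Smad7, 0.96 for Hes1, -0.58 for Junb, -0.15 for Bambi and -0.03 for Zfp423. In all 3 batches, 8 were higher and 2 were lower, against 22.7% and 21.2% of all tested genes. Without the block edgeR called 0 of them (8 at an unadjusted p of 0.05) and limma called 0. DESeq2 called 7 higher and 1 lower, against 1.01% of all tested genes in either direction. With the block 4 rose by edgeR, against 0.371% of all tested genes. Limma then called 3 higher, without Nog (0.897% in either direction), and DESeq2 called 7 higher and 2 lower (5.05%). The 4 were Smad9, a receptor-activated SMAD, by 3.69 (SE 0.35), the helix-loop-helix factor gene Atoh8 by 5.74 (SE 0.56), Id2, an inhibitor of helix-loop-helix factors, by 2.80 (SE 0.23), and Nog, which encodes a BMP antagonist, by 7.61 (SE 0.75), with edgeR adjusted p of 0.0152 for Id2 and 0.0241 for the others. Atoh8 and Nog were near 0 counts with PBS, so their fold changes depend on the prior count. Smad6, an inhibitory SMAD gene, differed by 3.76 on the log2 scale without the block (SE 0.64) and by 3.47 with it (SE 0.59). It was called by edgeR in neither model and by DESeq2 in both.

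The size of the difference varied between batches for Gata2, Dlx1 and many of the BMP targets. The log2 differences of Gata2 were 0.61, 1.11 and 2.06 in batches 1, 2 and 3. Those of Smad6 were 1.77, 3.55 and 4.99, and those of Id1 were 1.36, 3.36 and 5.92. Id2 differed by 2.51, 2.46 and 3.45, so that its batches 1 and 2 were close. Those of Atoh8 were 6.64, 4.77 and 6.35, and those of Nog were 3.04, 8.51 and 7.60. Gata2 and 6 of the 13 tested targets (Id1, Id3, Smad6, Smad9, Bambi and Runx2) had the smallest value in batch 1 and the largest in batch 3, counted with their sign. So did 6 of 9 tested neural crest genes, and the share over all tested genes was not computed. Runx2, at -2.84, -1.75 and -1.30, was lower with BMP2, so the size of its difference was largest in batch 1. Dlx1, and Hes1 with 1.43, 1.00 and 0.39, had the reverse order of batches. These genes were picked after their values were seen. With 3 batches, this is a description of 3 pairs and was given no test.

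**Figure D5:**
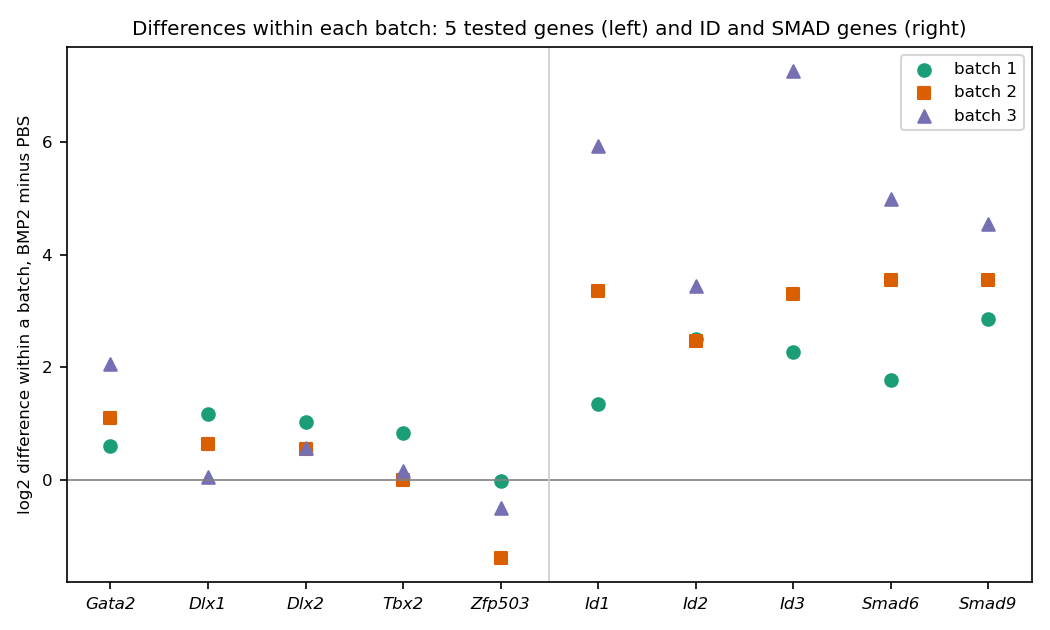
Log2 difference between the BMP2 and the PBS library of each batch for the 5 tested genes (left) and for Id1, Id2, Id3, Smad6 and Smad9 (right), with symbols for the batches. The differences of the 5 genes lie between -1.38 and 2.06, and those of the ID and SMAD genes between 1.36 and 7.25.

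Most receptor and SMAD genes of the pathway were expressed, and the type I receptor gene Bmpr1b, with 0 counts in 5 libraries and 3 in PBS 2, was not detectable. Of 14 listed, 12 were tested, 1 was higher and 4 were lower in all 3 batches, and edgeR, DESeq2 and limma each called 0 in either model (edgeR at an unadjusted p of 0.05: 0, or 3 with the block). This list leaves out Smad6, Smad7 and Smad9, which stand with the BMP targets above. Among them Smad9 was called higher by all the tools with the block, and Smad6 by DESeq2. The type I receptor gene Bmpr1a was at 152 ± 33 CPM with BMP2 against 126 ± 41 with PBS (SD, n = 3). The log2 fold changes were 0.27 for Bmpr1a, -0.39 for the type I receptor gene Acvrl1, -1.36 for the type II receptor gene Acvr2b and -0.63 for the co-receptor gene Rgma. The median of the list was -0.09.

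Other members of the same gene families were mostly absent. Of 26 relatives, 9 were tested, and the other 17 had at most 12 counts in any library, with 6 at 0 in all of them. The tested ones had a median log2 fold change of 0.02, with 3 higher and 3 lower in all batches, and edgeR, DESeq2 and limma each called 0 in either model (edgeR 0 also at an unadjusted p of 0.05). The T-box gene Tbx4, which lies 44473 bases from Tbx2, was at 27.1 ± 5.5 CPM with BMP2 against 28.3 ± 5.0 with PBS, a log2 fold change of -0.06 (SE 0.24). Gata4, a factor of heart and endoderm, had the smallest unadjusted p of the list, at 1.34, 0.963 and 0.874 CPM with BMP2 and 0.325, 0.534 and 0.629 CPM with PBS in batches 1, 2 and 3. Its log2 fold change was 1.08 (SE 0.47, edgeR adjusted p 0.883), and Gata3 stood at 0.02. The log2 fold changes of the other tested relatives were 0.59 for Eomes, 0.36 for Dlx6, 0.18 for Tbx15, -0.29 for Mga, -0.36 for Zfp703, the relative of Zfp503, and -0.71 for Tbx6.

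The DLX genes of chromosome 6 were unequal. Dlx6 was at 4.35, 4.76 and 6.02 CPM with BMP2 and at 3.58, 3.54 and 4.64 CPM with PBS, while Dlx5, which lies 9236 bases away, was at 0 counts in all 6 libraries. Of the 31-base words of Dlx6, 9.8% occur in other genes, among them Dlx6os2 on the opposite strand, so its level is uncertain. Dlx3 and Dlx4, the pair on chromosome 11, had 1 count each over the 6 libraries.

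Partners of these factors showed no call. Of 10 listed partners of GATA2, 5 were tested, with a median log2 fold change of -0.57, and the 3 tools called 0 in either model (edgeR at an unadjusted p of 0.05: 0, or 2 with the block). Zfpm1, which encodes the GATA cofactor FOG1, was at 7.00 ± 2.1 against 10.4 ± 2.3 CPM, and every BMP2 library lay below every PBS library for it and for Runx1, as for 5.72% of the tested genes. The log2 fold changes were -0.57 for Zfpm1, -0.62 for Runx1, -0.99 for Tal1 and -0.12 for Lmo4. Of 13 Groucho and histone deacetylase corepressor genes, 12 were tested, with a median of 0.01 and 0 calls by the 3 tools in either model (edgeR at an unadjusted p of 0.05: 0, or 2 with the block). Their values included -0.43 for Sin3a, 0.32 for Hdac1, -0.23 for Ncor1 and -0.26 for Aes.

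Genes known to be repressed by TBX2 or TBX3 were also compared. Of 9 listed, 6 were tested, with a median log2 fold change of -0.13, and the 3 tools called 0 in either model (edgeR at an unadjusted p of 0.05: 0, or 1 with the block). Cdkn1a, which encodes the cell cycle inhibitor p21, was at 303 ± 100 CPM with BMP2 against 361 ± 110 with PBS. Tyrp1, a melanin enzyme gene that is also on the melanocyte lineage list, was at 9850 ± 2500 against 7540 ± 1100 CPM. Ndrg1 was at 1.08 ± 1.1 against 2.28 ± 2.2 CPM. Cdkn2a and Cdkn2b, cell cycle inhibitor genes and classical TBX2 targets, were at 0 counts in all 6 libraries, so they give no reading.

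Melanocyte and neural crest genes were set beside these factors. All 8 melanocyte genes were higher in all 3 batches, with a median log2 fold change of 0.53, and edgeR called 0 in either model (at an unadjusted p of 0.05: 2, or 8 with the block). Without the block DESeq2 and limma also called 0. With it DESeq2 called 4 (Mitf, Mlana, Slc45a2 and Tyr; 5.05% of all tested genes) and limma called 1 (Mlana; 0.897%), all higher. Mitf, the melanocyte master regulator, stood at 0.58, Mlana at 0.92, Dct at 0.43 and Tyr at 0.86. Of 16 neural crest genes, 9 were tested, with 1 higher and 5 lower in all batches and a median of -0.45. The 1 higher gene was Sox10, which is also among the 8 melanocyte genes. Without the block edgeR called 0 (1 at an unadjusted p of 0.05), limma 0 and DESeq2 1, and with it 1 fell by edgeR, against 0.364% of all tested genes. Both calls were of Tfap2a, a transcription factor gene of crest and melanocytes, lower by 1.03 on the log2 scale with the block (SE 0.13, edgeR adjusted p 0.036). With the block DESeq2 and limma each called Tfap2a and Zeb2, both lower. Without the block the log2 fold change was -1.04 for Zeb2 (-0.92 with it), which edgeR did not call, -0.63 for Ets1 and -1.18 for Zic1. The part of these lineage values in those of Gata2, Dlx1 and Dlx2 was not tested.

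Of the 9 tested markers of other cells, edgeR called 0 in either model (at an unadjusted p of 0.05: Lyz2, Cd68 and Runx2, and 1 more with the block), limma called 0, and DESeq2 called Runx2, lower, in both. The log2 fold changes were -0.85 for Pdgfra, 0.49 for Postn, 0.11 for Col1a1 and -0.20 for Thy1 among fibroblast genes, 0.61 for Vwf and -0.29 for Pecam1 among endothelial genes, and 1.65 for Lyz2 and -0.80 for Cd68 among leukocyte genes. The osteoblast factor Runx2, which is also on the list of BMP targets, stood at 0.611 ± 0.10 CPM with BMP2 and 2.62 ± 1.4 with PBS. Its difference was -2.09 on the log2 scale (edgeR adjusted p 0.404). Summed osteoblast and chondrocyte markers, Runx2 included, lay at 1.44 to 2.19 CPM with BMP2 and 2.01 to 4.39 with PBS. Alpl and Col2a1 of that list were too low to be tested, and both were higher with BMP2 in all 3 batches. Alpl had 22.3, 50.6 and 4.3 counts with BMP2 and 0.6, 10.4 and 2.0 with PBS. Summed fibroblast markers lay at 6.59 to 19.2 CPM with BMP2 and 7.01 to 18.1 with PBS.

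The genes whose course over the 6 libraries was most like that of each factor were found among protein-coding genes at a mean of at least 5 CPM. Likeness was the root-mean-square difference of log2(CPM + 0.5) values after centring each gene on its mean, so a smaller value is a closer course. For Gata2 these were Trib1 (0.174) and Itga4 (0.224), against a median of 0.708 over 9656 genes. Itga4, an integrin subunit gene, was at 82.8, 105 and 119 CPM with BMP2 and at 44.3, 49.9 and 48.9 CPM with PBS, and it rose with the block (edgeR adjusted p 0.036). The closest to Tbx2 were Smad3 (0.139) and Gpm6a (0.146), to Dlx1 Bpgm (0.0602) and Tcaf2 (0.0683), to Dlx2 Ddr1 (0.116) and Slc29a3 (0.142), and to Zfp503 Epc2 (0.0876) and Tomm34 (0.114). With 6 libraries and many genes, close courses arise readily, and these are given as a description without a test.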

How the data were processed

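RNA from 6 spheroid cultures was sequenced. The authors deposited estimated counts per gene, and the submitters' processing notes name kallisto 0.44.0 and GRCm38.p6. No source used here gives the annotation release or the strand setting. By identifier, 34679 of the 34981 genes matched GENCODE M21 (GRCm38). The counts were rounded and tested with edgeR 4.0.16 (R 4.3.3, quasi-likelihood, default low-count filter, TMM scaling, treatment alone in the model), with Benjamini-Hochberg adjustment over 12929 genes. SEs were worked back from the F statistic, and 95% intervals use that test's degrees of freedom. Differences within batches add 0.5 counts. Intervals from counts cover counting error only. The labels do not say how the batches were separated, so p-values measure only the spread between these samples, which may be technical.

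Replicate numbers match the batch given in the labels. Across genes, 2 libraries of a batch deviated together from their group means (correlations of 0.57, 0.34 and 0.61 for batches 1, 2 and 3), so a second model took the batch as a block, with 2 residual degrees of freedom in place of 4. Alternatives were no filter, a filter at a mean of 100 counts, DESeq2 1.42.0 size factors and Wald test, quantile normalization with limma 3.58.1, and leaving out libraries or batches. Those that join scaling, filter or test with the block were chosen after seeing the data. The 8 genes and all lists were chosen with earlier results of these data known. Named are all 8, every tested relative, up to 4 genes of each other list with the smallest unadjusted p, called genes, and 2 genes with the closest course per factor. A few genes were named after their values were seen (Dlx3, Dlx4, Dlx5, Msx3, Cdkn2a, Cdkn2b, Id1, Id3, Smad7, Hes1, Junb, Bambi, Zfp423, Bmpr1b, Alpl, Col2a1, Bglap, Dmp1 and markers at 0). The listed genes Sp7, Hjv, Zfpm2, Tle5, Snai2, Krt5, Krt1, Krt8 and Krt18 were not analysed here, and some other listed genes are not reported here. The scripts were tested on simulated counts.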

Additional observations from a re-analysis of the deposited data

How the results depend on the processing

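Each of the 5 tested genes kept its direction under every alternative in which it was fitted, and 89 of 92 such values stayed on the same side of the threshold. The other 3 were those of Gata2 that passed, given in the report (adjusted p 0.0132 to 0.0302), against 0.0501 to 1.0 in its other alternatives. Log2 fold changes ranged from 0.86 to 1.57 for Gata2, 0.34 to 0.91 for Dlx1, 0.16 to 1.02 for Dlx2, 0.01 to 0.72 for Tbx2 and -0.97 to -0.27 for Zfp503, each of these ends with a library or batch left out. With the stricter filter, Dlx1, Dlx2 and Zfp503 were not fitted.

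The replicate block, which pairs the libraries of a batch, changed no call among the 8 genes in edgeR with the default filter. Over all genes it raised the counts from 1 to 48 higher and from 5 to 47 lower. Of the 8 genes, 1 was called higher with the block and no filter, 1 with the block in DESeq2's Wald test and 0 to 1 with the block and a batch left out. Counts over all genes (higher, lower) were 19 and 16 with no filter, 0 and 4 with the stricter filter, 2 and 7 with quantile normalization, 62 and 68 with DESeq2's Wald test, 223 and 277 with the block and no filter, 47 and 51 with the block and DESeq2 size factors, 55 and 61 with the block and quantile normalization, and 241 and 412 with the block in DESeq2's Wald test. They lay at 0 to 5 higher and 2 to 5 lower without 1 library, and with the block at 223, 9 and 115 higher and 308, 18 and 103 lower without batch 1, 2 or 3. The cause was not tested. With 1 batch removed, 1 residual degree of freedom is left. Low counts limit what can be said of Msx1, Msx2 and Tbx3, which stay under 3 counts in each library, and of Zfp503, whose libraries hold 12.9 to 36.4 counts.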
